A study of Xenopus laevis with 6 samples.

Results

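Polyamine synthesis genes and the genes of its antizyme circuit were examined in whole Xenopus laevis embryos raised in 0.75X MMR or in 0.1X MMR. MMR (Marc's Modified Ringer's) is the salt solution in which the embryos were kept, and 0.75X is the stronger of the 2 strengths. The genes were chosen by name as the L and S copies of odc1, amd1, oaz1, azin1 and azin2, and the group was put together with the knowledge that azin2.S was lower in 0.75X MMR. Of the 10 names, 9 had a row among the 42638 genes in the table of counts, and azin2.L was not analysed here. Because the difference between the media guided the choice, the values of these 9 genes in the media are given as a description, without a p value. The confidence intervals given for them below are a description as well, and no test is read from them.

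The 0.75X MMR group held 3 pools of wild-type embryos that had started in 0.1X MMR and were moved at stage 9. The 0.1X MMR group held 3 pools of wild-type embryos that stayed in 0.1X MMR. Both groups developed at 14 °C to stage 35, an age the paper matches to day 7 counted from stage 9. Every pool held 10 whole embryos, and RNA was sequenced after ribosomal depletion, with single-end reads of 75 nucleotides. The study asked with this comparison whether the stronger medium, in which its Xenobots are kept, changes transcription by itself. Each library is a whole embryo pool. Fewer cells of a type and less RNA per cell therefore cannot be told apart in any value below. The paper describes its replicates in general as coming from independent batches. It does not say whether a batch was a separate clutch, so how much of the spread between pools is technical is not known.

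Polyamines (putrescine, spermidine and spermine) are small positively charged molecules that bind nucleic acids and that growing cells need. Ornithine decarboxylase, encoded by odc1, makes putrescine from ornithine, and S-adenosylmethionine decarboxylase, encoded by amd1, supplies the aminopropyl donor with which spermidine and spermine are built. Antizyme, encoded by oaz1, binds ornithine decarboxylase and delivers it to the proteasome, and its own full-length translation needs a ribosomal frameshift that polyamines promote. Antizyme inhibitors, encoded by azin1 and azin2, resemble ornithine decarboxylase but do not decarboxylate ornithine in mammals, where they bind antizyme and so release the enzyme. RefSeq lists odc2 among the older names of both azin2.S and odc1.L, and adc, odc1l and odc1-b among those of azin2.S. What the product of azin2.S does in Xenopus was not tested here.

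Each library held between 5024957 and 7045215 counts, and a gene with 3 counts stood at 0.426 to 0.597 CPM (counts per 1000000 counts of the library), a floor that covers counting error only. The 9 genes had between 168 and 3662 counts in a library and together took 0.199% to 0.237% of its counts, so that none of them was near the floor. All 9 were among the 28075 genes tested, which had a CPM over 0.6 in at least 3 libraries. Of 43 marker symbols for 10 tissues and skin cell types, 40 had a row. None of their 64 rows was at 0 in all libraries, so muscle, neural, blood, lens, heart, skin, liver and pancreas markers all had counts. Not every row was high enough to be tested, with 5 of 7 tested for blood and 1 of 2 for goblet skin cells. The 3 symbols without a row were hbb1, crygb and krt12.

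azin2.S, the antizyme inhibitor 2 copy on chromosome 2S (82275719 to 82282057, genome version 10.1, as are all positions here), showed the largest difference between the media among the 9 genes. It stood at 74.4, 98.9 and 57.0 CPM in 0.75X MMR, against 152, 124 and 167 CPM in 0.1X MMR. Every pool in 0.75X MMR lay below every pool in 0.1X MMR, and the nearest 2 pools across the media were both replicate 2. The means were 76.8 ± 21.1 CPM in 0.75X MMR and 148 ± 21.8 CPM in 0.1X MMR (SD, n = 3 each), a ratio of 0.519. The log2 fold change was -0.96 by edgeR and -0.99 by limma-voom with a standard error of 0.16. Where the mean count reached at least 50 (16535 genes), 17 had an absolute log2 fold change at least as large as that of azin2.S, itself included, and 5 had one as low. Nothing is read from this rank, since the same contrast guided the choice of azin2.S.

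**Figure D1:**
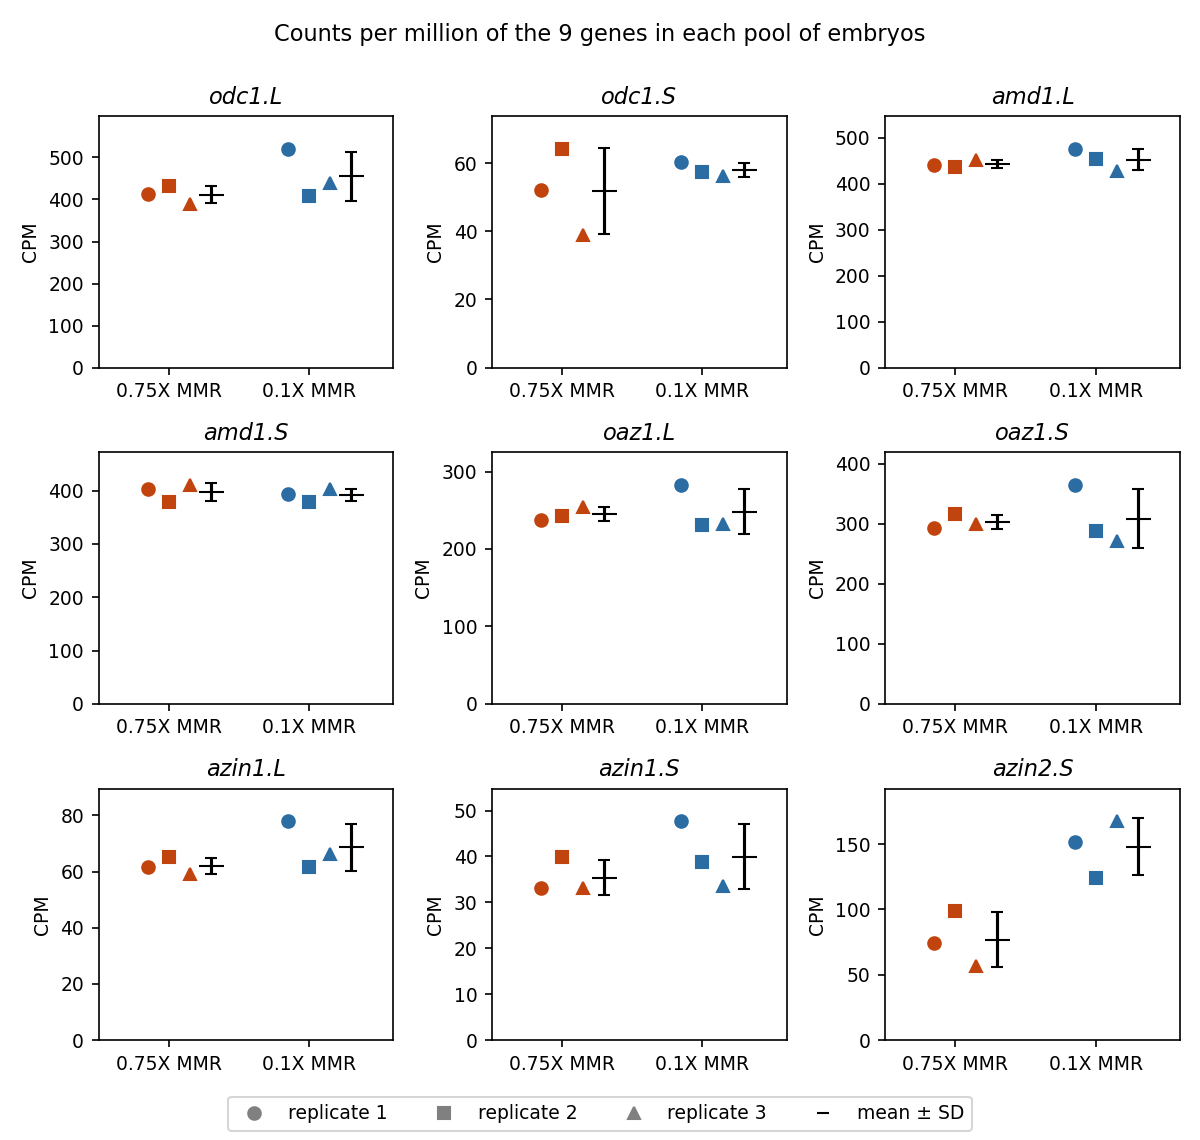
CPM (vertical axes, each from 0) of the 9 genes in the pools raised in 0.75X MMR (left, orange) and 0.1X MMR (right, blue), with the mean and SD of 3 pools in black. The azin2.S pools stand at 57.0 to 98.9 CPM in 0.75X MMR and at 124 to 167 CPM in 0.1X MMR, while those of the other 8 genes overlap between the media.

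Across the whole table, edgeR's quasi-likelihood test put 5 of 28075 genes, or 0.0178%, past a false discovery rate (FDR, by Benjamini and Hochberg) of 0.05, with 0.0107% lower in 0.75X MMR, and 0 of the 9 genes were among them. By limma-voom with 2 surrogate variables (estimated sources of variation between libraries that the medium does not account for) 26 of all genes, or 0.0926%, passed, with 0.0534% lower, and 1 of the 9 was among them, azin2.S. Nothing is read from these counts, since the same contrast guided the choice of the genes. azin2.S was also past the limit by edgeR without a filter on low counts and by edgeR without replicate 2 of 0.75X MMR, its highest pool in that medium. In the other alternatives it was not, and nothing is read from these calls either. The log2 fold change of azin2.S ranged from -1.19 to -0.78 over 13 alternatives, with the lower end without replicate 2 of 0.75X MMR and the upper end without replicate 3. The CPM of the media did not overlap in 1 of the 9 genes, where 9.84% of all tested genes did not overlap and 4.07% were lower in this way in 0.75X MMR.

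azin2.S varied more between pools than the typical gene. Its biological coefficient of variation (the spread between pools beyond counting error) was 14.5% by edgeR, against a common value of 9.53% over all genes, a median of 8.12% over those whose mean count reached 50, and 8.05% to 11.9% for the other 8 genes. Relative to their mean, the pools in 0.75X MMR spread more widely, with a coefficient of variation of 27.5%, than those in 0.1X MMR, with 14.8%. The SD itself was nearly the same, at 21.1 CPM in 0.75X MMR and 21.8 CPM in 0.1X MMR, and a difference in spread was not tested.

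The authors also deposited log2 CPM from which surrogate variables had been removed, and in these values the azin2.S pools lay closer together. The adjusted values were 6.05, 6.06 and 6.05 in 0.75X MMR, against 7.13, 6.99 and 7.00 in 0.1X MMR. Without adjustment, the log2 CPM was 6.21, 6.64 and 5.81 in 0.75X MMR, against 7.26, 6.97 and 7.40 in 0.1X MMR. The adjustment lowered the SD to 0.00604 in 0.75X MMR, against 0.412 before it, and to 0.0753 in 0.1X MMR, against 0.222 before it. The difference between the media stayed at -0.99 in both versions. Surrogate variables are estimated with the groups given, so a narrower spread within the groups follows from how the adjustment is made, and the adjusted values are no second measurement.

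**Figure D2:**
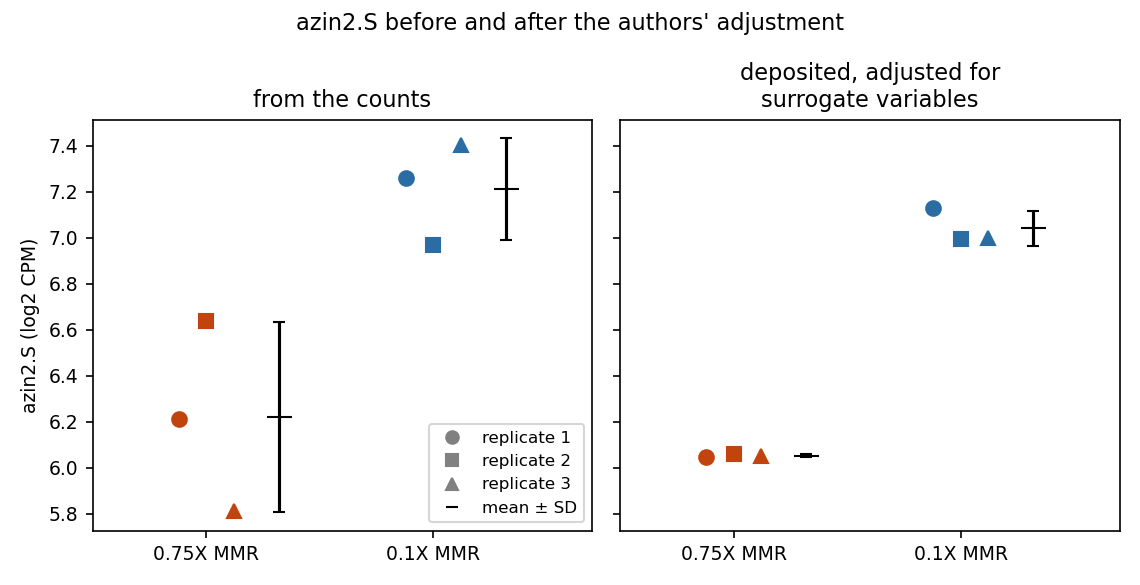
log2 CPM of azin2.S from the counts (left panel) and as the authors deposited it after adjustment for surrogate variables (right panel), with the mean and SD of 3 pools in black. The distance between the media is -0.99 in both panels, and the SD in 0.75X MMR is 0.412 in the left panel and 0.00604 in the right one.

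The counts of azin2.S were whole numbers in all 6 libraries (within 0.01), as were those of 40.8% of the tested genes. RSEM gives a fraction where a read fits more than one gene, so no read of azin2.S was visibly divided with another gene. macf1.S, a cytoskeletal linker gene 3 places after it on chromosome 2S (82360086 to 82522371), averaged 302 CPM in 0.75X MMR and 307 CPM in 0.1X MMR. No other annotated gene overlapped the span of any of the 9 genes.

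The level of azin2.S relative to oaz1, odc1 and azin1 in the same library was lower in 0.75X MMR. Since the oaz1 and odc1 sums overlapped between the media, this restates the difference of azin2.S and adds no second result. These ratios are of counts without correction for transcript length, so that they compare libraries and not genes. There were 14.02, 17.7 and 10.3 azin2.S counts per 100 oaz1 counts (both copies) in 0.75X MMR, against 23.5, 23.9 and 33.2 in 0.1X MMR. Relative to 100 odc1 counts there were 16.03, 19.9 and 13.3 azin2.S counts in 0.75X MMR, against 26.2, 26.8 and 33.8 in 0.1X MMR. A lack of overlap was not particular to azin2.S. Per 100 oaz1 counts, azin1 had 16.7 to 18.8 in 0.75X MMR and 19.3 to 19.8 in 0.1X MMR. In the same way odc1 had 77.5 to 89.02 in 0.75X MMR and 89.5 to 98.3 in 0.1X MMR, whereas amd1 per 100 odc1 counts overlapped. Of the azin1 and azin2.S counts together, azin2.S made up 43.5% ± 5.20 in 0.75X MMR and 57.6% ± 4.38 in 0.1X MMR (SD, n = 3 each), with no overlap between the media.

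The summed markers of 4 of the 10 tissues and cell types did not overlap between the media, but the sum for small secretory skin cells overlapped once muc2l was left out. Of all single genes tested 9.84% did not overlap, a share that is not comparable with that of sums over several rows. The part of these cell types in the difference of azin2.S was not tested. Of the single marker rows tested, muc2l.L alone passed the FDR limit by edgeR. The 5 rows for small secretory skin cells summed to 661 to 994 CPM in 0.75X MMR and to 1761 to 2136 CPM in 0.1X MMR, but without muc2l, a mucin gene, to 105 to 119 CPM in 0.75X MMR and 98.1 to 108 CPM in 0.1X MMR. The 6 ionocyte rows summed to 46.2 to 55.3 CPM in 0.75X MMR and to 59.6 to 79.4 CPM in 0.1X MMR, with 0 of 6 past the limit, 2 above 0 and 4 below on the log2 fold scale. The ionocyte sums put all 6 pools in the same order as azin2.S did, although replicates 1 and 2 of 0.75X MMR were almost equal, at 55.26 and 55.28 CPM. This order was seen among 10 lists compared in the same 6 libraries, so it is a description only. Skeletal muscle markers overlapped, with sums of 8148, 10368 and 6797 CPM in 0.75X MMR, against 8208, 8687 and 9563 CPM in 0.1X MMR. Within 0.75X MMR the muscle sum had the same order of pools as azin2.S, and within 0.1X MMR it did not. Blood markers, at 238 to 245 CPM in 0.75X MMR and 146 to 227 CPM in 0.1X MMR, and multiciliated cell markers, at 118 to 130 CPM in 0.75X MMR and 110.06 to 114 CPM in 0.1X MMR, were on the higher side in 0.75X MMR without overlap, with 0 of 5 tested blood rows and 0 of 9 multiciliated rows past the limit.

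The genes whose log2 CPM followed azin2.S most closely over the 6 libraries, among 16534 others whose mean count reached 50, were zfyve9.L, fkbp1b.S and cdh15.L. Pearson's r with azin2.S was 0.99 for zfyve9.L (Spearman's rho 1), 0.99 for fkbp1b.S (rho 1) and 0.98 for cdh15.L (rho 0.94), and without the 2 libraries farthest from the median of azin2.S it was 0.98 for zfyve9.L, 0.96 for fkbp1b.S and 0.98 for cdh15.L. In all, 173 genes had an r over 0.9. All genes share the 6 libraries and their split into media, so these values only describe which genes had a like pattern. zfyve9.L stood at 8.53, 8.83 and 8.01 CPM in 0.75X MMR, against 10.2, 9.93 and 10.3 CPM in 0.1X MMR. By edgeR this gave -0.28 on the log2 scale, so its pattern was alike but its difference was smaller.

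odc1, the gene of ornithine decarboxylase itself, overlapped between the media. odc1.L (chromosome 5L, 149419168 to 149425673) stood at 412, 433 and 390.4 CPM in 0.75X MMR, against 519.8, 407 and 439 CPM in 0.1X MMR. Replicate 1 of 0.1X MMR was the highest pool, and the others lay close together. The log2 fold change by limma-voom was -0.16 (95% confidence interval -0.35 to 0.03), and by edgeR without that pool it was -0.06. odc1.S (chromosome 5S, 126083427 to 126092111) stood at 52.2, 64.1 and 39.03 CPM in 0.75X MMR, against 60.2, 57.4 and 56.1 CPM in 0.1X MMR. Its pools in 0.75X MMR lay on both sides of those in 0.1X MMR, and its coefficient of variation was 24.2% in 0.75X MMR, against 3.56% in 0.1X MMR. The counts of both copies together gave a log2 fold change of -0.16 by limma-voom (95% confidence interval -0.36 to 0.03).

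amd1, the other decarboxylase gene, was the steadiest of the 5. amd1.L (chromosome 5L, 80532443 to 80552612) averaged 442 ± 8.61 CPM in 0.75X MMR and 452 ± 23.3 CPM in 0.1X MMR, and amd1.S (chromosome 5S, 63833968 to 63850586) averaged 397 ± 16.6 CPM in 0.75X MMR and 392 ± 11.9 CPM in 0.1X MMR (SD, n = 3 each). Both copies together gave a log2 fold change of -0.03 by limma-voom, with a 95% confidence interval of -0.15 to 0.09. On the ratio scale this interval ran from 0.904 to 1.07 times the level in 0.1X MMR, and it is given as a description.

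oaz1, the antizyme gene, differed by less than the spread between pools. oaz1.S (chromosome 1S, 93357849 to 93367316) stood at 293, 316 and 299 CPM in 0.75X MMR, against 364, 288 and 272 CPM in 0.1X MMR. oaz1.L (chromosome 1L, 111870303 to 111879133) stood at 238, 243 and 255 CPM in 0.75X MMR, against 282, 231 and 232 CPM in 0.1X MMR. In both copies replicate 1 of 0.1X MMR was the highest of the 6 pools, and without it the log2 fold change by edgeR turned to 0.09 for oaz1.S and 0.06 for oaz1.L, against -0.05 for oaz1.S and -0.04 for oaz1.L with all pools. RefSeq lists oaz1.L as a transcribed pseudogene and oaz1.S as protein coding, yet their counts were of the same order in every pool. The 95% confidence interval of both copies together by limma-voom was -0.22 to 0.15.

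azin1, the other gene named as an antizyme inhibitor, overlapped between the media. azin1.L (chromosome 6L, 142004179 to 142034690) stood at 61.7, 65.1 and 59.2 CPM in 0.75X MMR, against 77.9, 61.5 and 66.4 CPM in 0.1X MMR. azin1.S (chromosome 6S, 117865388 to 117896941) stood at 33.1, 39.8 and 33.1 CPM in 0.75X MMR, against 47.6, 38.8 and 33.5 CPM in 0.1X MMR. Replicate 1 of 0.1X MMR was again the highest pool in each. With both copies together the log2 fold change by limma-voom was -0.18 (95% confidence interval -0.39 to 0.04).

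Replicate 1 of 0.1X MMR was the highest of the 6 pools in 6 of the 9 genes, and replicate 3 of 0.75X MMR the lowest in 4. Over the 9 genes 8 had a negative log2 fold change by edgeR, with a median of -0.16, while 50.4% of all tested genes were negative. Without replicate 1 of 0.1X MMR, 6 were negative, the median was -0.055 and azin2.S stood at -0.94. The difference of azin2.S was thus about as large without that pool, while the values of odc1.L, azin1.L and azin1.S came nearer to 0, at -0.06, -0.06 and -0.05. The value of odc1.S also changed little, at -0.15 without that pool and -0.18 with all pools. It was -0.01 without replicate 3 of 0.75X MMR.

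odc1.L and azin1.L had nearly the same pattern over the pools. Of the 16534 genes compared with odc1.L over the 6 libraries, azin1.L had the highest Pearson r, 0.999, with a Spearman rho of 0.94. Next came usp22.S and lrrn1.L, both with an r of 0.99, and 180 genes had an r over 0.9. The r of azin1.L with odc1.L was 0.996 without the 2 libraries farthest from the median of odc1.L, and 0.999 for the deviations from the mean of each medium. The pair was picked for this pattern in the same libraries, so these values only describe it. There were 14.99, 15.04 and 15.2 azin1.L counts per 100 odc1.L counts in 0.75X MMR, against 14.98, 15.1 and 15.1 in 0.1X MMR. This spread of 0.504% lies below the 4.58% to 5.87% that counting error alone gives for such a ratio, so that the closeness exceeds what counts of this size can resolve. azin2.S followed odc1.L less closely, with an r of 0.73 and a rho of 0.77, and an r of 0.61 without the same 2 libraries.

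**Figure D3:**
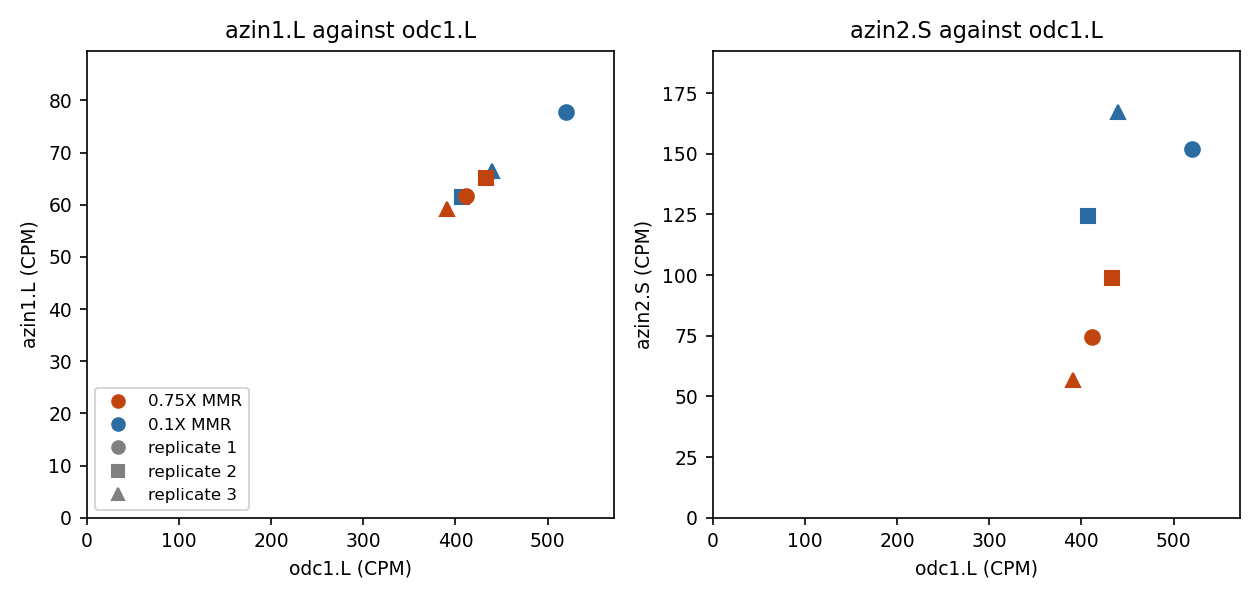
CPM of azin1.L (left panel) and azin2.S (right panel) against CPM of odc1.L in the 6 pools, with the medium as colour, the replicate number as symbol and all axes from 0. The azin1.L points lie on one line with 14.98 to 15.2 counts per 100 of odc1.L, while azin2.S in 0.75X MMR lies below its level in 0.1X MMR at like levels of odc1.L.

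Xenopus laevis is an allotetraploid, and 4 of the 5 genes were measured as a pair of L and S homeologs. The division of counts between the copies differed from gene to gene and hardly differed between the media. The L copy took 88.9% ± 1.91 of odc1 counts in 0.75X MMR and 88.6% ± 0.989 in 0.1X MMR (SD, n = 3 each), and lay between 87.1% and 90.9% in all pools. It took 52.7% ± 0.713 of amd1 counts in 0.75X MMR and 53.6% ± 1.72 in 0.1X MMR. For azin1 it took 63.7% ± 1.54 in 0.75X MMR and 63.3% ± 2.78 in 0.1X MMR. For oaz1, the only one of the 4 pairs in which the S copy had more counts in all 6 pools, the L copy took 44.8% ± 1.25 in 0.75X MMR and 44.7% ± 1.19 in 0.1X MMR. In each of the 4 pairs the difference between the mean shares of the media was smaller than the larger SD of the 2.

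The mean log2 ratio of L to S counts over the 6 pools was 2.99 ± 0.20 for odc1, 0.18 ± 0.07 for amd1, -0.30 ± 0.06 for oaz1 and 0.80 ± 0.13 for azin1 (SD, n = 6). Over the 6904 pairs with both copies tested the median was 0.31, the middle 50% of pairs lay between -0.37 and 1.08, and 62.4% of pairs had more L counts. Only 3.87% of the pairs leaned further to the L copy than odc1 did, so odc1 stood near one end of this range and the other 3 pairs inside or near its middle. Transcript lengths were not used here, so the ratios are of counts and were not tested as levels.

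**Figure D4:**
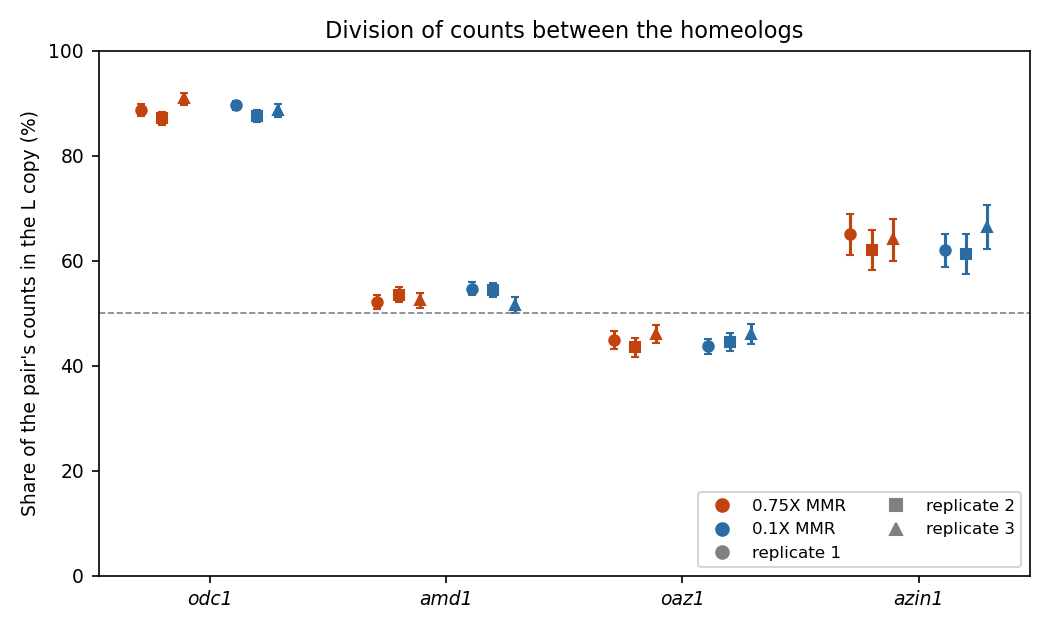
Share of a pair's counts in the L copy (vertical axis, percent) for odc1, amd1, oaz1 and azin1 in each pool, with 0.75X MMR in orange left of 0.1X MMR in blue, 95% Wilson intervals for counting error and a dashed line at equal shares. The shares lie at 87.1% to 90.9% for odc1, 51.6% to 54.6% for amd1, 43.5% to 46.02% for oaz1 and 61.3% to 66.5% for azin1.

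Single copies carried fractional counts, because RSEM had divided reads between genes, but the sum of the L and S counts was a whole number in 6 of 6 libraries for each of the 4 pairs (within 0.015). No fraction was thus left outside a pair, and the sums do not depend on how reads were divided within it. The oaz1 copies varied together over the pools (r = 0.91, rho = 0.89, n = 6, and r = 0.84 without the 2 libraries farthest from the median of oaz1.L). For the amd1 copies this was not seen (r = -0.18, rho = -0.49, n = 6, and r = 0.03 without the 2 libraries farthest from the median of amd1.L). Their coefficients of variation within a medium were only 1.95% to 5.15%, so there was little variation to compare and no conclusion is drawn. The odc1 copies had an r of 0.64 and a rho of 0.60, and an r of 0.51 without the 2 libraries farthest from the median of odc1.L. The azin1 copies had an r of 0.82 and a rho of 0.83, and the r was 0.03 without replicate 1 of 0.1X MMR and replicate 3 of 0.75X MMR, so that it rested on them.

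Around the 9 genes, 45 other symbols of the polyamine pathway were listed, of which 41 had a row and 59 rows were tested. By edgeR's quasi-likelihood test with adjustment over all 28075 genes, 0 of the 59 were higher and 0 lower at an FDR under 0.05, while the p before adjustment was under 0.05 for 2 of them and for 1232, or 4.39%, of all tested genes. With limma-voom and surrogate variables these numbers were 0 past the FDR limit and 4 before adjustment, where 1391 of the 28075 genes had such a p before adjustment. Their median log2 fold change was 0.01, with 34 above 0 and 25 below, and the median of all tested genes was 0 when rounded. By limma-voom, 58 of the 59 had a 95% confidence interval that stayed inside a 2-fold change in either direction. The CPM of the media did not overlap in 4 of the 59, of which 3 were lower in 0.75X MMR, beside 9.84% of all tested genes without overlap and 4.07% lower in this way, so these counts were near the general share.

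In no group of the pathway did a gene pass the test. The enzymes next to odc1 and amd1 overlapped between the media. srm.L, spermidine synthase, averaged 34.5 ± 1.89 CPM in 0.75X MMR and 31.3 ± 1.88 CPM in 0.1X MMR, and sms.L, spermine synthase, averaged 172 ± 11.2 CPM in 0.75X MMR and 160 ± 2.73 CPM in 0.1X MMR (SD, n = 3 each). oaz2.S, a second antizyme, averaged 3.99 ± 0.875 CPM in 0.75X MMR and 4.65 ± 0.818 CPM in 0.1X MMR. The 5 tested genes of polyamine acetylation and oxidation had log2 fold changes of -0.16 to 0.05, the 5 of eIF5A and its hypusine modification (which uses spermidine) of -0.06 to 0.20, and the 8 of polyamine transport of -0.09 to 0.25. The 12 genes of MYC and its partners, regulators of odc1 transcription in mammals, had log2 fold changes of -0.18 to 0.15.

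Among pathway genes whose mean count reached 50, the largest differences were in the supply of ornithine and methionine. arg1.L, an arginase that makes ornithine, stood at 18.3, 16.8 and 23.4 CPM in 0.75X MMR, against 25.4, 22.8 and 25.1 CPM in 0.1X MMR (log2 fold change -0.34, edgeR's adjusted p = 0.9997). mtr.L, methionine synthase, stood at 37.95, 30.6 and 35.9 CPM in 0.75X MMR, against 39.9, 39.1 and 45.8 CPM in 0.1X MMR (log2 fold change -0.27, edgeR's adjusted p = 0.9997). The copies of arg2, the mitochondrial arginase, had values on opposite sides of 0, at 0.34 for arg2.L and -0.26 for arg2.S on the log2 scale. mat1a.L, a methionine adenosyltransferase, and dhps.L, deoxyhypusine synthase, were at 0.21 and 0.20, both without passing the test. All 6 of these genes had an adjusted p of 0.9997 by edgeR, so no difference between the media was shown for them.

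**Figure D5:**
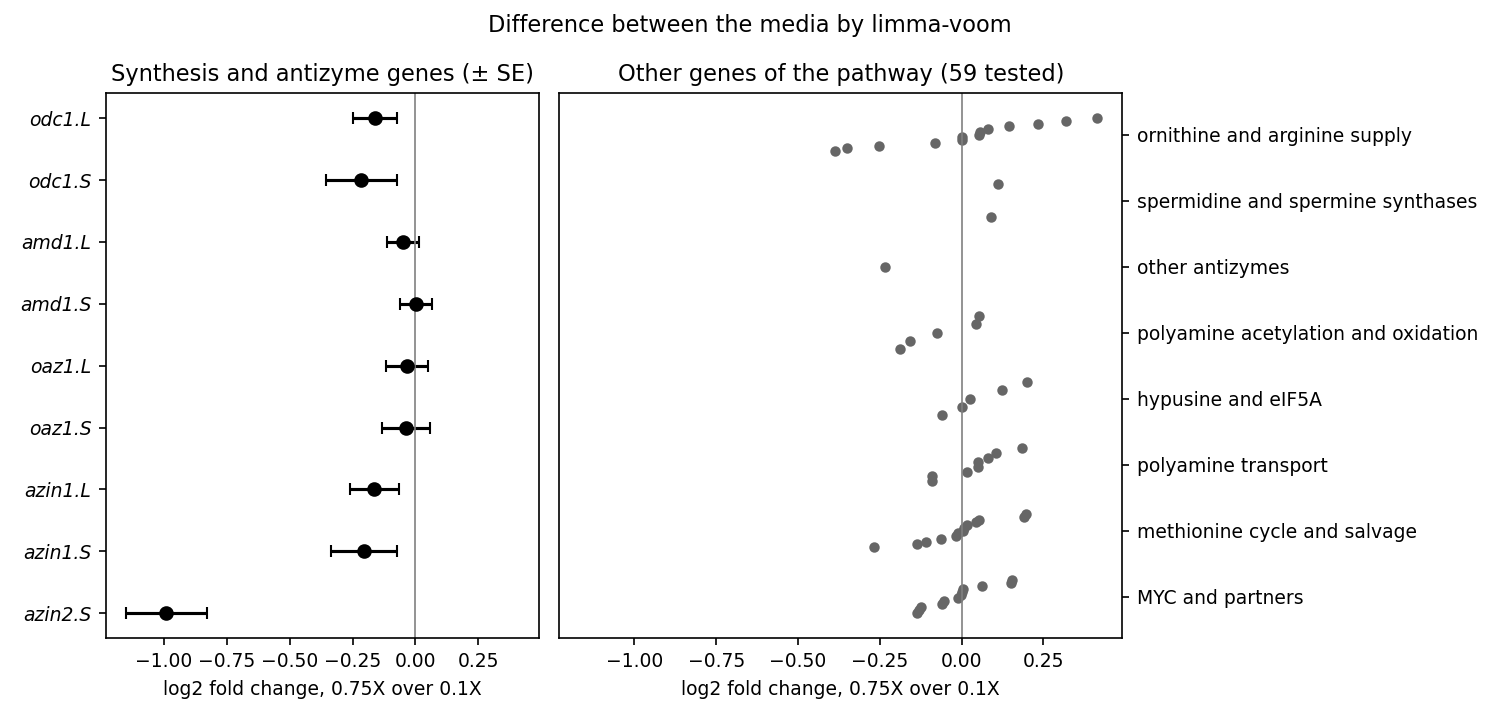
log2 fold change by limma-voom, 0.75X MMR over 0.1X MMR, of the 9 genes with the standard error (left panel) and of the 59 other tested genes of the pathway by group (right panel, each point a gene, spread vertically only to part the points). azin2.S lies at -0.99 and the other 8 genes between -0.21 and 0.00, and the vertical grey lines mark equal levels.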

How the data were processed

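Reads were trimmed (fastp), aligned in 2 passes (STAR, Xenopus laevis genome version 10.1) and assigned to genes with RSEM by the authors. The deposited expected counts per gene are not normalized. The second deposited file holds log2 CPM made by the authors with TMM and voom, from which surrogate variables had then been removed. Tool versions and the strand setting of the counting are not given in the sources used here, and 0 columns were left without a sample.

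CPM was the count per 1000000 counts of the library. The 28075 genes that exceeded 0.6 CPM in 3 or more libraries were tested, on counts rounded to whole numbers, with the quasi-likelihood test of edgeR 4.0.16 (TMM factors, medium as sole term). p values were adjusted over all of these genes (Benjamini-Hochberg, FDR limit 0.05). Standard errors and 95% confidence intervals came from limma-voom (limma 3.58.1). The 2 surrogate variables were recovered from the difference between unadjusted and deposited log2 CPM, of which 2 components held 61.1% and 38.8%. DESeq2 1.42.0 was an alternative, with R 4.3.3 and Python 3.11.15. The main edgeR fit and the limma-voom and DESeq2 fits with medium as sole term were run on simulated counts. These had 2-fold changes and the same biological coefficient of variation for all genes. That value, 9.53%, lies below the 14.5% of azin2.S, and the other alternatives were not simulated. Ratios of L to S used an offset of 0.5 counts. No transcript lengths were used, so the planned test of L against S per length was replaced by a description.

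Gene positions and biotypes came from RefSeq (version 10.1), where all 9 genes matched. Pathway genes named are those past the FDR limit, or the 3 highest and 3 lowest log2 fold changes at a mean count of 50 or more, and the groups' next enzymes srm.L, sms.L and oaz2.S were added after values were seen. The genes most like azin2.S and odc1.L are the 3 with the highest r. The members and lists were chosen with earlier results of these data known.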

Additional observations from a re-analysis of the deposited data

How the results depend on the processing

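The number of genes past an FDR of 0.05 was 5 in the edgeR test, and it was 14 with DESeq2, 34 without a filter on low counts, 26 with limma-voom and surrogate variables, 2 with L and S counts summed and 1 to 10 with each library left out in turn (1 without replicate 1 of 0.1X MMR, 2 and 3 without replicates 1 and 3 of 0.75X MMR, and 10 without replicate 2 of 0.75X MMR). The cause was not tested, except that the sums test fewer genes and each left-out library leaves fewer samples. The number of the 9 polyamine genes past the limit was 0, and it was 1 (azin2.S) without the filter and with limma-voom and surrogate variables, and 0 to 1 with each library left out. Nothing is read from these calls, since the same contrast guided the choice of the genes. With the replicate number as a block, 2 genes passed the limit and none of the 9 did. The deviations of samples with the same number had correlations of -0.05, -0.04 and -0.14, so no pairing of the pools by number was seen. With so few pools this cannot exclude a pairing. For the 9 genes, the 6 named pathway genes and the L to S ratios, all values under the alternatives run moved by less than the spread between pools. Leaving out a pool can hardly move a mean by more than that spread, so for those alternatives this says little. The log2 fold change of odc1.S, for example, ranged from -0.37 to -0.01. Transcript lengths were not used here, so the alternative of L to S per length was not run, and the block was not run on the ratios, which have no test. The sign of amd1.S, oaz1.L and oaz1.S turned under some alternatives, all near 0.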
